A study of Homo sapiens with 8 samples.

Results

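The genes described here are 36 interferon-stimulated genes and antiviral sensors, taken by name from a deposited table of read counts for 67060 genes. They comprise sensors of foreign RNA and DNA with their adaptors, the transcription factors that carry the interferon signal, and the effectors that the signal induces. Of the 36 genes, 33 had at least 1 read in some library and 27 had enough reads to be tested. The remaining 9 are described by their reads only.

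RNA was sequenced from SH-SY5Y, an established human neuroblastoma cell line, in 8 libraries. In 4 of them the cells had received an adenovirus for BioID-Flag-ERRg (the ERRg group), that is, the biotin ligase BioID joined to Flag-tagged estrogen-related receptor gamma, an orphan nuclear receptor encoded by ESRRG. The other 4 had received an adenovirus for BioID-GFP-NLS (the GFP group), the same ligase on green fluorescent protein that a signal directs to the nucleus. Per the labels, plates reached 80% confluence, got 0.5 ul of virus, and were harvested after 48 h for total RNA, which was depleted of ribosomal RNA. Both groups carried virus and BioID, so a response to either that the groups share is not part of the comparison. The libraries come from 1 cell line, and nothing in the labels ties a replicate to a culture of its own, so p-values speak of the spread among these libraries, which may be technical.

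Cells recognise viral RNA in the cytoplasm with the helicases RIG-I (gene DDX58) and MDA5 (gene IFIH1), which signal through the mitochondrial adaptor MAVS to the transcription factors IRF3 and IRF7 and so to interferon genes. Secreted interferon acts through its receptor and a complex that holds STAT2 and IRF9. That complex binds the interferon-stimulated response element in front of genes such as the IFIT, OAS and IFITM families, whose products block steps of viral replication. Several of these genes are also transcribed without interferon, and adenoviruses are known to interfere with the pathway.

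The response element is the feature of sequence that the interferon-induced genes share, so it is shown first. RefSeq promoter sequences (GRCh38.p14) were at hand for 27 of the 36 genes, and the 250 bases before each start were searched on both strands for the core GAAANNGAAA. It was present in 14 of the 27 genes (51.9%) and in 1061 of 35116 promoters of that length (3.02%). IFIT2, IFITM2, MX2, OAS2, OASL, IRF3, IRF7, CGAS and STING1 had no entry. The core nearest the start is given below for the 12 tested genes that hold one, in 30-base windows, with the core in capitals, 5′ to 3′ on the strand on which it reads as written. The first is IFIT5, which was higher in ERRg libraries, the next 5 were lower, and the last 6 were not called by the test described below.
IFIT5, chr10:89414539-89414568, minus strand: tgaaacttaaGAAATCGAAActaaacgtaa
IFITM3, chr11:320876-320905, minus strand: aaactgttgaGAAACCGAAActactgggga
ISG15, chr1:1013380-1013409, plus strand: tcgggaaaggGAAACCGAAActgaagccaa
OAS3, chr12:112938452-112938481, plus strand: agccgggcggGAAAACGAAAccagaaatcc
IFI6, chr1:27672266-27672295, minus strand: gcagagtgcaGAAATAGAAActccgacagg
BST2, chr19:17405735-17405764, minus strand: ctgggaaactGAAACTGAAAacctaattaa
IFIT1, chr10:89392510-89392539, minus strand: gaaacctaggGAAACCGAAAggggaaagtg
IFIT3, chr10:89327865-89327894, minus strand: gaggaaactgGAAAGTGAAActaatttaaa
ISG20, chr15:88638937-88638966, plus strand: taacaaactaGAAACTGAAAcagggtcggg
IFI44, chr1:78649761-78649790, minus strand: tcagagaaagGAAACTGAAActcagtgtgc
IFI44L, chr1:78620365-78620394, plus strand: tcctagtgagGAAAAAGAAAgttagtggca
IFIH1, chr2:162318686-162318715, minus strand: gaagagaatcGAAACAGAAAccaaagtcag

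IFITM3, ISG15 and IFIT1 carry the same core letters, GAAACCGAAA, although the first and second were lower in ERRg libraries and IFIT1 was not called. The core lay 12 to 124 bases before the start in these 12 windows. Of the tested genes, those with a core comprised 1 higher, 5 lower and 6 not called. Those with a promoter sequence but no core comprised 3 higher and 8 lower, where 38.8% of all genes tested were higher and 35.9% lower. Only the spacing in GAAANNGAAA was searched, so a response element with another spacing would be missed. The DDX58 window, counted here without a core, holds GAAACGAAA. For IFI6 and STAT2, a longer stretch before the first annotated exon is given. IFI6, like IFIH1, has 3 cores, of which the farthest from the start lies outside the stretch. Most other genes above have 2 cores. STAT2, a subunit of the factor that binds the element, has none in the window.
IFI6, chr1:27672219-27672318, minus strand: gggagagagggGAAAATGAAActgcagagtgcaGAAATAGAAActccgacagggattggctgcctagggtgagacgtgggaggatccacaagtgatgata
STAT2, chr12:56360156-56360255, minus strand: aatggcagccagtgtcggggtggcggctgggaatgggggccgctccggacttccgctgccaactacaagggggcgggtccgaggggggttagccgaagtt

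The gamma-activated site core TTCNNNGAA, named for the response to interferon gamma, was found in the windows of 7 of the 27 genes (25.9%) and in 6.57% of all promoters. These 7 were IFITM1, OAS1, IFI27, IFI35, IRF1, IRF9 and BST2. The estrogen-related receptor element TCAAGGTCA was found in 0 of the 27 windows and in 112 of all promoters (0.319%). A match describes letters in a window and does not show that a factor binds there. The lack of a match does not show that no such element is present.

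ESRRG, the gene delivered by the virus, stood at 32.7, 33.1, 37.1 and 36.8 CPM in GFP replicates 1 to 4 and at 824, 711, 888 and 810 CPM in ERRg replicates 1 to 4. CPM are reads per M reads of the library, scaled by the TMM method of edgeR. The groups did not overlap (exact two-sided permutation p = 0.0286, the smallest that 4 against 4 allow). Reads assigned to genes were 27.7 to 35.5 M per GFP library and 21.02 to 23.0 M per ERRg library, and 3 reads of a gene correspond to 0.103 to 0.123 CPM. The libraries also differed in kind. Reads outside annotated exons made up 20.9% ± 3.58 (SD, n = 4) in GFP and 46.7% ± 1.31 (SD, n = 4) in ERRg, and the part of this difference in the gene results was not tested.

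Most of the tested genes were lower in ERRg libraries. Of 27, 16 were lower and 4 were higher at an adjusted p under 0.05 (edgeR's quasi-likelihood test, Benjamini-Hochberg adjustment over all genes tested), and 7 were not called. OASL and BST2, counted as lower, passed the low-count filter only through the GFP libraries, where they are high. The filter thus fixed their direction in part. Both were also called lower with no low-count filter (log2 fold changes -1.44 and -0.98). Among all 21993 genes tested, noncoding ones included, 35.9% were lower and 38.8% were higher. All 27 listed genes are coding. Of the coding genes tested, 23.2% of those below their median GC content were lower, and 78.0% of the others. All 4 ERRg libraries lay below all 4 GFP libraries for 15 of the genes and above them for 2, and the groups overlapped for 10. The same count was not made over all genes tested, so it is not read as a property of the list. The median log2 fold change, ERRg over GFP, was -0.86 over the 27 genes, -0.30 over the 13426 coding genes tested and 0.09 over all genes tested. Against a log2 fold change of 1, 7 of the genes passed the test, all lower, where 10.5% of all genes passed lower and 7.69% higher. These 7 were IFITM3, IFITM2, OAS1, IRF3, ISG15, IRF1 and STAT2.

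Levels of the genes differed widely. Per kilobase of the longest annotated transcript, the RNA-editing enzyme ADAR had the highest GFP mean at 105 CPM. IFITM2 followed at 67.0 ± 11.7 and IFITM3 at 59.1 ± 9.46 CPM per kb (SD, n = 4 each), and these neighbours differed by less than their spread. STAT2 stood at 27.8, MAVS at 22.3, TRIM25 at 19.7, IRF3 at 17.8, IFI6 at 16.6 and EIF2AK2 at 13.7 CPM per kb. ISG15 stood at 7.36, and the other tested genes were at 4.29 CPM per kb or less in either group, apart from DDX58, which reached 4.44 in ERRg. MX1, IFIT2 and OASL, classical interferon-induced genes, were at 0.652 CPM per kb or less in both groups.

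**Figure D1:**
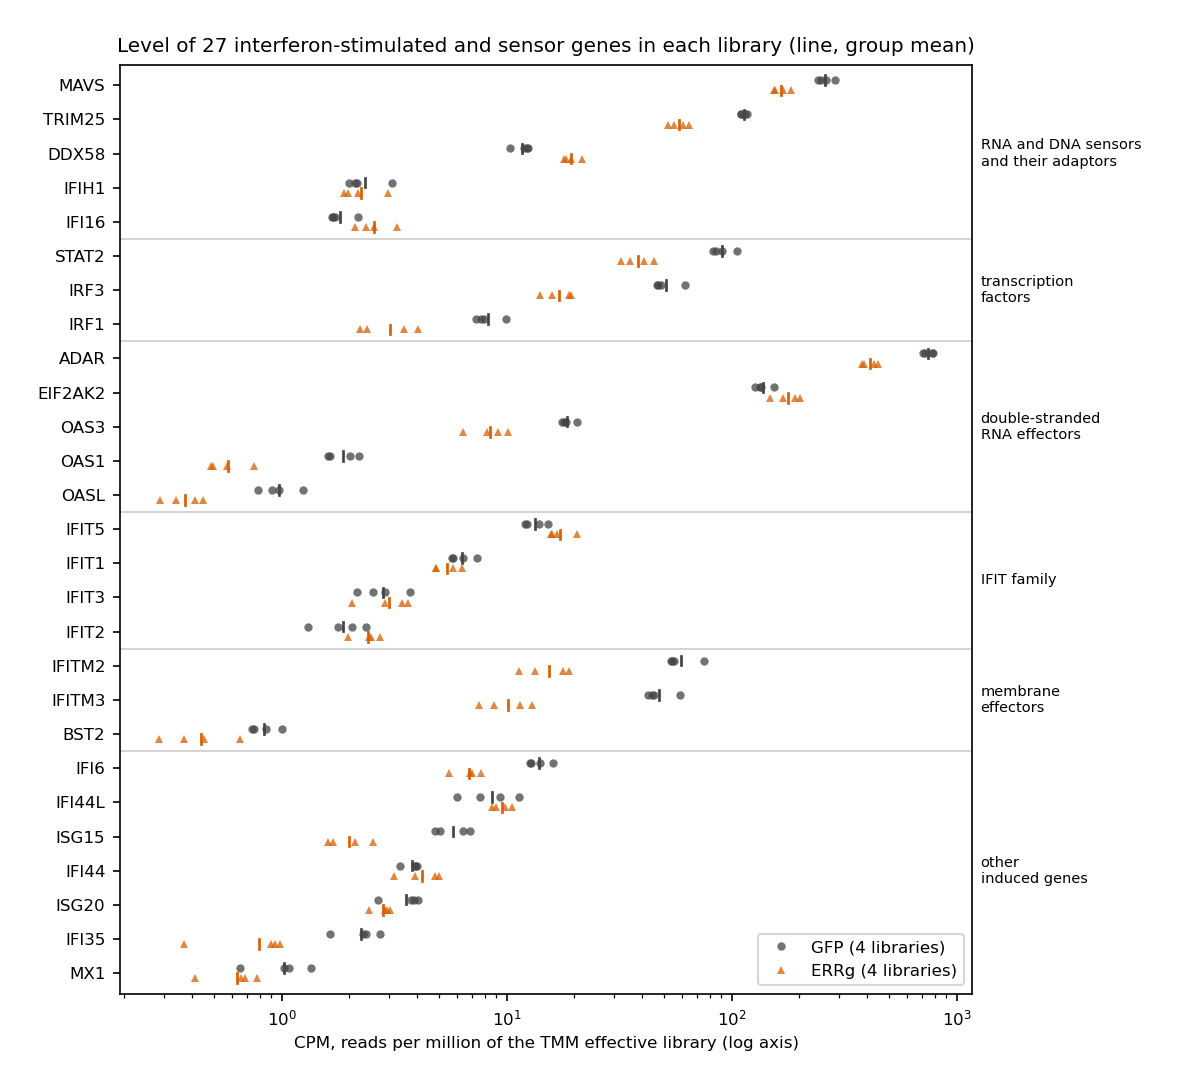
Level of each of the 27 tested genes in CPM on a log axis, with 4 points per group (circles, GFP; triangles, ERRg), short lines at group means, and genes grouped by role. The largest gaps between groups are those of IFITM2 and IFITM3, with 53.9 to 75.4 and 42.6 to 59.1 CPM in GFP against 11.4 to 19.0 and 7.57 to 13.0 CPM in ERRg.

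The sensors did not move together. DDX58, which encodes the RNA helicase RIG-I, and the DNA sensor IFI16 were higher, and MAVS and TRIM25, which act with RIG-I, were lower. IFIH1 was not called. DDX58 (ENSG00000107201.10, chr9:32455705-32526324 on GRCh38, minus strand) had 10.3, 12.0, 12.4 and 12.3 CPM in GFP and 21.6, 19.3, 18.0 and 18.5 CPM in ERRg replicates 1 to 4. Every ERRg library was above every GFP library, a 1.64-fold difference (log2 fold change 0.72, SE 0.10, adjusted p = 3.49e-06). DDX58 was called higher in every fit made other than the test against a log2 fold change of 1.

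MAVS, the adaptor that RIG-I and MDA5 share, had 251, 288, 262 and 243 CPM in GFP and 156, 154, 184 and 170 CPM in ERRg. The groups were apart, and MAVS was 1.57-fold higher in GFP (log2 fold change -0.65, SE 0.09, adjusted p = 1.58e-06). TRIM25, the ubiquitin ligase known for activating RIG-I, fell from 113 ± 3.26 to 58.4 ± 5.47 CPM (SD, n = 4 each), a log2 fold change of -0.95. With TMM scaling, DDX58 and MAVS, sensor and adaptor of one branch, thus differed in opposite directions between the same libraries. In the fits with offsets described below, MAVS was at -0.24, and at -0.04 and not called with offsets for GC content alone.

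IFIH1, which encodes the helicase MDA5, had 2.0, 2.17, 2.12 and 3.09 CPM in GFP and 1.97, 2.97, 1.89 and 2.20 CPM in ERRg. The groups overlapped throughout (log2 fold change -0.04, SE 0.20, adjusted p = 0.85), and its direction changed when upper-quartile scaling was used, to 0.26. IFI16 had 1.68, 1.69, 1.73 and 2.18 CPM in GFP and 3.25, 2.37, 2.59 and 2.11 CPM in ERRg. Its lowest ERRg library lay under its highest GFP library (log2 fold change 0.51, SE 0.19, adjusted p = 0.023). That call was lost without ERRg replicate 1 (log2 fold change 0.37), without GFP replicate 1 (0.39), 2 (0.42) or 3 (0.39), and without ERRg replicates 1 and 2 together (0.35). It was also lost with no low-count filter (0.45) and with the DESeq2 Wald test (0.44).

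The cytosolic DNA-sensing pair was hardly detected. CGAS, the enzyme that makes a cyclic dinucleotide when it meets DNA, had 2, 15, 7 and 3 reads in GFP and 1, 4, 4 and 3 reads in ERRg, too few to be tested. STING1, the receptor for that dinucleotide, is listed at 0 reads in all 8 libraries. A 0 in this table is not evidence that a gene is silent, since TUBB and FLOT1, which most cells express, are listed at 0 as well. Those controls were chosen after their values were seen.

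All 3 tested transcription factors were lower in ERRg, beside 35.9% of all genes tested. They were IRF3, which switches on interferon genes after sensing, STAT2, a subunit of the interferon-activated complex, and IRF1, a factor induced by interferon. IRF3 (ENSG00000126456.16, chr19:49659569-49665875, minus strand) had 46.8, 62.1, 47.2 and 48.6 CPM in GFP and 15.9, 14, 19.0 and 19.4 CPM in ERRg. Even its lowest GFP value was above all ERRg values, and the mean differed 3.0-fold (log2 fold change -1.59, SE 0.12, adjusted p = 3.46e-10). GFP replicate 2 was the highest of its group for IRF3, and without it the log2 fold change was -1.53.

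STAT2 (ENSG00000170581.14, chr12:56341597-56360155, minus strand) had 85.2, 106, 90.4 and 82.8 CPM in GFP and 32.3, 35.3, 45.2 and 40.9 CPM in ERRg. The groups were apart by a factor of 2.37 (log2 fold change -1.25, SE 0.11, adjusted p = 2.88e-09). IRF1 had 7.28, 9.97, 7.74 and 7.94 CPM in GFP and 2.22, 2.40, 4.02 and 3.50 CPM in ERRg. These groups were apart too (log2 fold change -1.44, SE 0.17, adjusted p = 2.5e-07).

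The other 2 factors of the list could not be compared. IRF7, the factor that amplifies interferon production, had 1 read in GFP replicate 2, 1 in ERRg replicate 2 and 4 in ERRg replicate 4, and was at 0 elsewhere. IRF9, the DNA-binding partner of STAT2, is listed at 0 in every library. All 50-base stretches (100%) of its longest transcript also occur in the annotated read-through gene AL136295.5, which covers 48.4% of its exonic bases on the same strand and is listed at 0 too. Reads that fit more than one gene stand in a summary line of the table, with 12.1% ± 1.46 of reads in GFP libraries and 5.44% ± 0.415 in ERRg libraries (SD over 4 each). Whether this overlap accounts for the 0 was not tested.

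Among genes whose products act on double-stranded RNA, 4 of 5 tested were lower and EIF2AK2 was higher. Of all genes tested, 35.9% were lower and 38.8% higher. OAS1, an oligoadenylate synthetase that activates the ribonuclease RNase L, had 1.64, 2.21, 2.01 and 1.61 CPM in GFP and 0.494, 0.751, 0.575 and 0.488 CPM in ERRg. No ERRg library reached the lowest GFP library, and the difference was 3.21-fold (log2 fold change -1.68, SE 0.25, adjusted p = 3.76e-06). OAS3, the family member expressed most per length here, fell from 18.6 ± 1.32 to 8.46 ± 1.61 CPM (SD, n = 4 each; log2 fold change -1.14). OASL, a relative without synthetase activity, fell from 0.976 ± 0.193 to 0.371 ± 0.0715 CPM (SD, n = 4 each; log2 fold change -1.39). OAS2 had 1 read in all, in GFP replicate 4.

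ADAR, which converts adenosine to inosine in double-stranded RNA, fell from 749 ± 38.4 to 411 ± 32.7 CPM (SD, n = 4 each; log2 fold change -0.86, adjusted p = 2.9e-08). EIF2AK2, the kinase PKR that shuts down translation on binding double-stranded RNA, had 128, 134, 155 and 135 CPM in GFP and 191, 201, 149 and 169 CPM in ERRg. ERRg replicate 3 lay within the GFP range, so the groups overlapped (log2 fold change 0.36, SE 0.10, adjusted p = 0.0027). Without GFP replicate 1 the call was lost at a log2 fold change of 0.25. It was also lost without ERRg replicates 1 and 2 together, at 0.19.

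The IFIT genes, which encode RNA-binding proteins that block translation of viral RNA, gave 1 call in 4. Beside it stand 38.8% higher and 35.9% lower of all genes tested. IFIT5 had 12.4, 12.0, 14 and 15.2 CPM in GFP and 20.6, 16.7, 15.7 and 15.9 CPM in ERRg. Its lowest ERRg library was just above its highest GFP library (log2 fold change 0.36, SE 0.11, adjusted p = 0.00757). This call was lost without GFP replicate 1 (log2 fold change 0.24), 2 (0.26) or 3 (0.29), and without ERRg replicates 1 and 2 together (0.22).

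IFIT1 stood at 6.32 ± 0.797 CPM in GFP and 5.45 ± 0.74 in ERRg, with a log2 fold change of -0.21 (SE 0.14) that became 0.09 with upper-quartile scaling. IFIT2 stood at 1.88 ± 0.449 and 2.42 ± 0.324 CPM (log2 fold change 0.35, SE 0.20), and IFIT3 at 2.83 ± 0.655 and 3.0 ± 0.713 CPM (0.09, SE 0.20; SD, n = 4 for each). With upper-quartile scaling, which moved the median of all genes tested from 0.09 to 0.40, IFIT2 was also called higher. Differences of the size of these standard errors were not detectable. Whether the counting used strand is not given in the sources used here, and IFIT1, IFIT2 and IFIT3 lie within the annotated span of LIPA on the opposite strand. Of exonic bases, 1.58% in IFIT2 and 0% in IFIT1 and IFIT3 overlap exons on the opposite strand. The share was 22% in IRF1, 21.3% in IFITM3 and 19.3% in IRF3, and its effect on their counts was not tested.

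The membrane effectors held the 2 genes with the largest differences of the list. IFITM3 (ENSG00000142089.16, chr11:319669-327537, minus strand), a membrane protein that restricts entry of enveloped viruses, had 45.0, 59.1, 44.3 and 42.6 CPM in GFP and 7.57, 8.83, 13.0 and 11.4 CPM in ERRg. Every ERRg library was far below every GFP library, 4.69-fold on average (log2 fold change -2.23, SE 0.14, adjusted p = 9.96e-11). IFITM2, its neighbour and close relative, had 55.6, 75.4, 54.2 and 53.9 CPM in GFP and 11.4, 13.3, 19.0 and 17.9 CPM in ERRg. The groups were again far apart (log2 fold change -1.96, SE 0.14, adjusted p = 3.02e-10).

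These paralogs share sequence, so the split between them is uncertain. Of the 50-base stretches of the longest transcript, 15.8% in IFITM2, 20.3% in IFITM3 and 42.3% in IFITM1 also occur in other genes. IFITM1 lies within the annotated IFITM2 and had 4, 3, 3 and 3 reads in GFP and 1 in each ERRg library, at or near the floor of 3 reads, so no fold change is given. Reads aligned more than once, which were not assigned to genes, made up 11.9% ± 1.32 in GFP and 6.41% ± 0.449 in ERRg libraries (SD over 4 each). BST2, or tetherin, which holds budding virions at the cell surface, fell from 0.838 ± 0.12 to 0.441 ± 0.159 CPM (SD, n = 4 each; log2 fold change -0.93, adjusted p = 0.0118). Its call was lost with upper-quartile scaling (-0.62) and without ERRg replicates 1 and 2 together (-0.85).

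Of the other induced genes, 4 of 7 tested were lower, beside 35.9% of all genes tested, and 3 were not called. ISG15, a ubiquitin-like protein that is attached to other proteins after interferon, had 5.07, 6.90, 4.79 and 6.42 CPM in GFP and 1.60, 1.69, 2.54 and 2.11 CPM in ERRg. All ERRg libraries were below all GFP libraries, 2.91-fold on average (log2 fold change -1.54, SE 0.18, adjusted p = 1.74e-07). IFI35, which encodes a cytoplasmic protein that binds the NMI protein, had 1.64, 2.73, 2.37 and 2.31 CPM in GFP and 0.987, 0.939, 0.369 and 0.894 CPM in ERRg. The groups did not overlap, and ERRg replicate 3 stood well below the rest (log2 fold change -1.49, SE 0.26, adjusted p = 3.29e-05).

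IFI6, a small membrane protein known for blocking flavivirus replication, fell from 13.9 ± 1.54 to 6.78 ± 0.905 CPM (SD, n = 4 each; log2 fold change -1.04). MX1, the dynamin-like GTPase that blocks influenza virus, had 1.03 ± 0.288 CPM in GFP and 0.636 ± 0.157 in ERRg with overlapping groups (SD, n = 4 each; log2 fold change -0.70, adjusted p = 0.0403). MX1 lost its call without ERRg replicate 1 (-0.73), 2 (-0.54) or 4 (-0.75), without GFP replicate 1 (-0.61), without ERRg replicates 1 and 2 together (-0.50), with upper-quartile scaling (-0.40) and with the DESeq2 Wald test (-0.76).

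The 3 genes not called were ISG20, an exonuclease, and the neighbouring IFI44 and IFI44L. ISG20 stood at 3.59 ± 0.619 and 2.82 ± 0.263 CPM (log2 fold change -0.35, adjusted p = 0.0648), and it was called lower with DESeq2 size factors (-0.39, adjusted p = 0.0446) and without GFP replicate 4 (-0.53). IFI44 stood at 3.80 ± 0.298 and 4.23 ± 0.86 CPM, and IFI44L at 8.59 ± 2.3 and 9.51 ± 0.907 CPM (SD, n = 4 each, GFP first). Their log2 fold changes were 0.16 and 0.15, and both were called higher with upper-quartile scaling. IFI27 is listed at 0 in all libraries. XAF1 had at most 3 reads in a library and MX2 at most 2, so neither was tested.

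GC content of the transcripts separated the calls within the list. The 4 higher genes had 37.4% to 40.5% GC, the 16 lower genes 48.2% to 63.4%, and the 7 genes not called 37.8% to 53.0%. Across the 27 genes, which share the same 8 libraries, log2 fold change and GC content had a Spearman coefficient of -0.81. Across the 13426 coding genes tested it was -0.70, so the relation was shared by coding genes at large. Below 48.0% GC, the median of those coding genes, 4 of 10 listed genes were higher and 6 were not called, beside 50.8% of 6713 coding genes called higher. At or above it, 16 of 17 were lower and ISG20 was not called, beside 78.0% of 6713 coding genes called lower. In that richer class the median log2 fold change was -1.25 for the listed genes and -0.93 for coding genes, and in the poorer class 0.25 and 0.27.

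**Figure D2:**
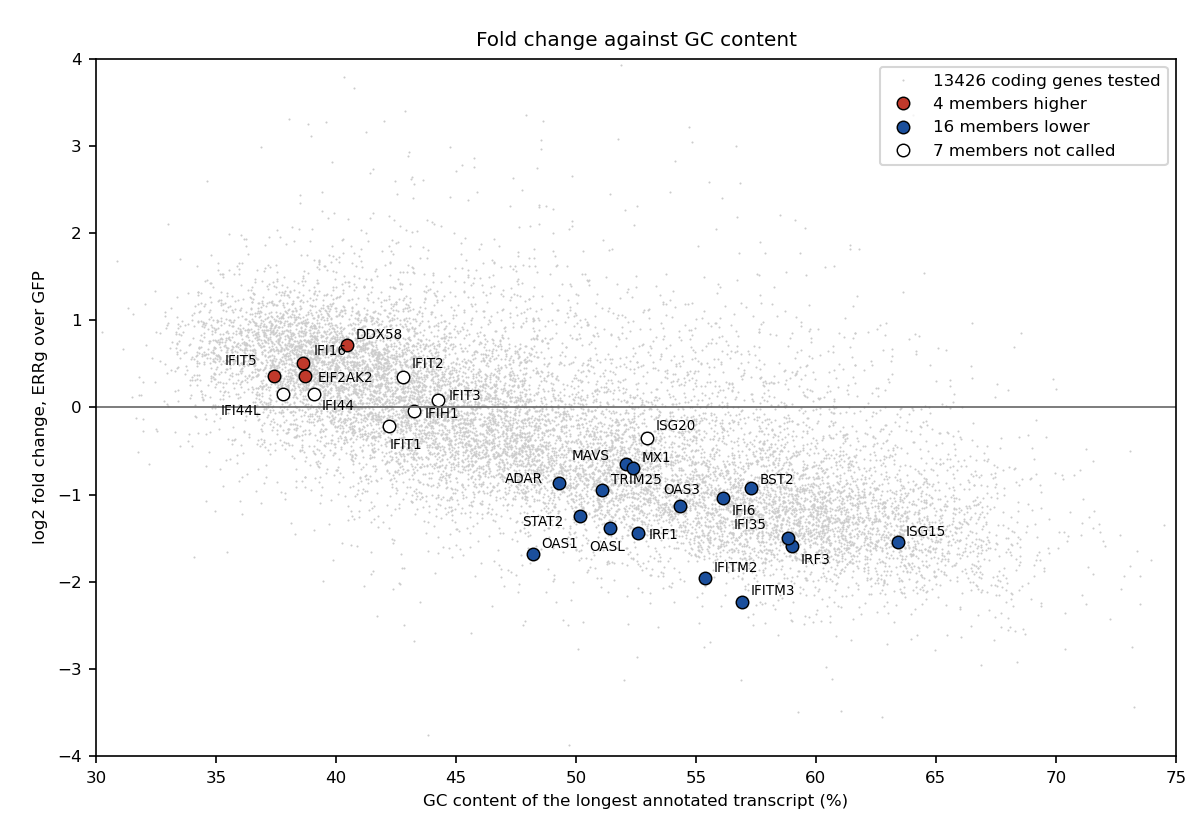
Log2 fold change, ERRg over GFP, against GC content of the longest transcript in percent, for 13426 coding genes (grey; 12 lie outside the plotted range) and the 27 tested genes (red, higher; blue, lower; white, not called). The listed genes follow the slope of the grey cloud, with OAS1, IFITM2 and IFITM3 among those toward its lower edge.

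The comparison was therefore repeated on coding genes with offsets, which remove the smooth trends of each library's counts with GC content, transcript length and gene span. In this fit, 38.7% of 13426 coding genes were lower and 33% were higher. Of the 27 genes, 14 were lower, 2 were higher and 11 were not called, with a median log2 fold change of -0.24 beside -0.04 for coding genes. Against GC content the listed genes then had a Spearman coefficient of -0.14. The genes that stayed lower in both fits were IFITM2, IFITM3, OAS1, OAS3, OASL, IRF1, IRF3, STAT2, MAVS, ADAR and TRIM25. Among these, OAS1 had the largest difference at -1.27, followed by IFITM3 at -0.90, OASL at -0.76 and IFITM2 at -0.74. OAS1 was under 1 CPM in every ERRg library, and OASL passed the low-count filter only through its GFP libraries. STAT2 was at -0.68, IRF1 at -0.67, IRF3 at -0.40 and MAVS at -0.24.

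Other calls did not carry over. ISG15 moved from -1.54 to 0.00 (adjusted p = 0.992), and IFI35, MX1 and BST2 also lost their calls, BST2 with a change of sign to 0.35. IFI6 turned from lower to higher, at 0.25 (adjusted p = 0.0184), and EIF2AK2 turned from higher to lower, at -0.25 (adjusted p = 0.000712). DDX58 stayed higher at 0.33 (adjusted p = 0.000952). IFIT5 and IFI16 lost their calls at 0.10 and 0.03. IFIT1 and IFI44L, not called before, were lower at -0.26 and -0.31. IFIT2, IFIT3, ISG20, IFI44 and IFIH1 were not called in either fit. With offsets for GC content alone, 1 of the genes was higher (DDX58) and 14 were lower, IFIT5 was among the lower ones at -0.18, and IFI6, EIF2AK2 and MAVS were not called. Whether the relation with GC content arose in the cells or in library preparation cannot be told apart in these data.

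**Figure D3:**
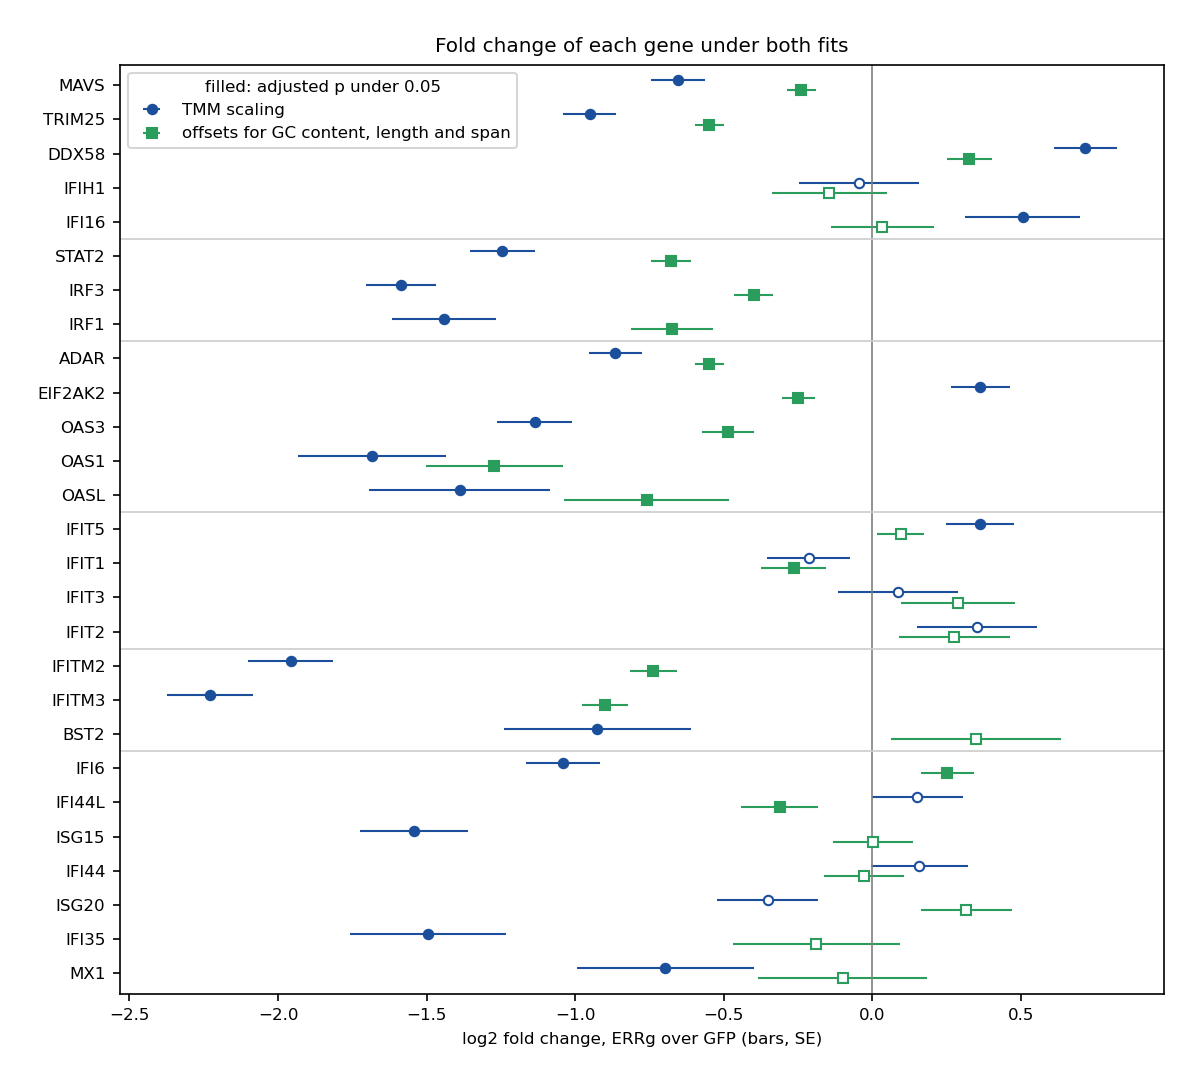
Log2 fold change, ERRg over GFP, of the 27 genes with TMM scaling (blue circles) and with the offsets (green squares). Bars show the SE, and filled symbols mark an adjusted p under 0.05. IFITM3 stays lower at -2.23 and -0.90, while ISG15 moves from -1.54 to 0.00 and EIF2AK2 crosses zero.

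By role, all 3 transcription factors were lower in both fits, and all 5 tested genes that act on double-stranded RNA were lower with offsets. The sensors and adaptors comprised 2 higher and 2 lower of 5 with TMM scaling, and 1 higher and 2 lower with offsets. The IFIT family gave 1 higher of 4 with TMM scaling and 1 lower of 4 with offsets. For membrane effectors, 3 of 3 were lower and then 2 of 3. The other induced genes went from 4 lower of 7 to 1 lower and 1 higher, with a median log2 fold change of -0.70 and then -0.03. Of all genes tested, 35.9% were lower and 38.8% higher with TMM scaling, and of coding genes 38.7% and 33% with offsets. The 3 factors have at least 50.2% GC, in the class where 78.0% of coding genes were lower with TMM scaling. With 3 to 7 tested genes per role, these counts are not read as properties of the roles.

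The rest of the pathway was read from gene lists chosen apart from the 36. Of 21 interferon genes, 10 are listed at 0 in all libraries. The 3 that could be tested were all higher in ERRg, beside 38.8% of all genes tested. IFNA1 and IFNK passed the low-count filter only through the ERRg libraries, where they are high. Their direction was therefore in part fixed by the filter. IFNE, an interferon of epithelia, rose from 3.85 ± 1.28 to 9.48 ± 2.8 CPM (log2 fold change 1.31). IFNA1 rose from 0.308 ± 0.263 to 1.27 ± 0.137 CPM (log2 fold change 2.08) and IFNK from 0.348 ± 0.175 to 1.08 ± 0.102 CPM (log2 fold change 1.65; SD, n = 4 for each). IFNE lies within MIR31HG on the same strand and IFNK within MOB3B on the other, and the share of host-gene reads in these counts was not tested.

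Of 19 tested genes for interferon receptors and JAK-STAT signalling, 4 were higher and 9 lower, and 2 and 9 with offsets. Beside these stand 38.8% higher and 35.9% lower of all genes tested, and 33% and 38.7% of coding genes with offsets. The receptor chain gene IFNAR1 stood at 51.0 ± 4.08 and 50.4 ± 6.24 CPM (log2 fold change -0.02, SE 0.10), and IFNAR2 at 0.566 ± 0.0727 and 0.679 ± 0.139 CPM (0.26, SE 0.30; SD, n = 4 each). IFNAR2 shares 44.2% of its exonic bases with a read-through gene on the same strand, and the effect of this on its count was not tested. Of the JAK family kinases in this list, JAK2 was at a log2 fold change of 1.42 and TYK2 at -1.24. With offsets they were at 0.85 and -0.21, and with offsets for GC content alone TYK2 lost its call (-0.09). SOCS1 and SOCS3, feedback inhibitors of the kinases, fell by 1.34 and 1.5 on the log2 scale, but SOCS1 had 0.20 with offsets.

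Among 18 tested sensing adaptors, kinases and further nucleic acid sensors, 6 were higher and 9 lower, where 38.8% of all genes tested were higher and 35.9% lower. The adaptors MYD88 and TICAM1 of Toll-like receptors, the mitochondrial NLRX1 and the DNA sensor DDX41 fell by 1.32, 1.34, 1.78 and 1.19 on the log2 scale. With offsets, 4 of this list were higher and 6 lower, and TICAM1 (-0.094) and DDX41 (-0.11) lost their calls. Of 37 tested further interferon-stimulated effectors, 8 were higher and 17 lower, with a median log2 fold change of -0.20. With offsets, 8 were higher and 14 lower, with a median of -0.05, where 33% of coding genes were higher and 38.7% lower. UBE2L6, the conjugating enzyme for ISG15, fell by 1.70, LGALS3BP by 1.51, the cytidine deaminase APOBEC3C by 1.19 and the antibody receptor TRIM21 by 1.14. UBE2L6 was lower with offsets too (-0.64), unlike ISG15 itself.

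Of 7 tested antigen presentation genes, 5 were lower, beside 35.9% of all genes tested. With offsets, 5 were lower and 2 higher, beside 38.7% and 33% of coding genes, and 6 of the 17 listed are at 0 in all libraries. B2M, the light chain of class I molecules, fell from 29.2 ± 1.39 to 19.4 ± 1.5 CPM (SD, n = 4 each). The chaperone genes CALR and PDIA3 fell by 1.16 and 0.58 on the log2 scale. Of 15 tested genes of NF-kB signalling and inflammation, 5 were higher and 8 lower, beside 38.8% and 35.9% of all genes tested. With offsets, 4 were higher and 4 lower, and the list's median log2 fold change turned from -0.31 to 0.09. RELA, NFKB2 and NFKBIA fell by 1.51, 1.40 and 1.08, and the adhesion gene ICAM1 rose at a log2 fold change of 1.19. With offsets, RELA was at -0.45, NFKBIA at -0.12 (adjusted p = 0.0492) and ICAM1 at 2.16, while NFKB2 lost its call at -0.11.

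**Figure D4:**
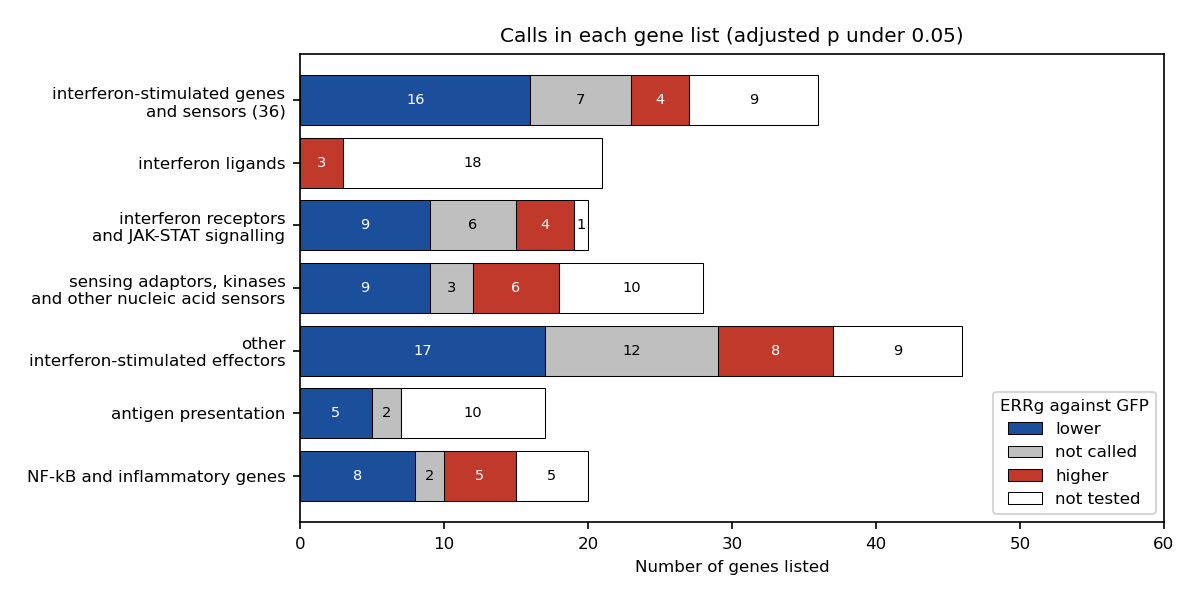
Number of genes in each list that were lower (blue), not called (grey), higher (red) or not tested (white) in ERRg against GFP at an adjusted p under 0.05, with TMM scaling. The 36 genes described here hold 16 lower and 4 higher, and the 46 further effectors hold 17 lower and 8 higher.

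Marker genes moved between the groups as well. The sum over 13 leukocyte markers was 2.78 to 3.56 CPM in GFP and 2.67 to 2.96 CPM in ERRg, with CD3E, TYROBP and AIF1 at 0. Most of it came from CSF1R, at 2.1 ± 0.0606 and 1.57 ± 0.142 CPM (SD, n = 4 each). The sum over 13 noradrenergic neuroblastoma markers was 915 to 1039 CPM in GFP and 598 to 667 CPM in ERRg. Of 10 tested, 7 were lower, among them DBH, GATA2, PHOX2A and HAND2, while TH and CHGA are listed at 0. With offsets, 4 of the 10 were higher and 3 lower, and their median log2 fold change turned from -0.74 to 0.09, so this shift depends on the fit. The sum over 11 fibroblast and endothelial markers was 1638 to 1829 CPM in GFP and 911 to 1011 CPM in ERRg, with 6 of 8 tested lower in both fits. Beside these marker counts stand 35.9% of all genes tested called lower, and 38.7% of coding genes with offsets. The part of these shifts in the interferon-stimulated genes was not tested, and in bulk RNA fewer cells with a gene active and less RNA per cell cannot be told apart.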

How the data were processed

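One table of unnormalised read counts was deposited by the authors, with 5 summary lines that name no gene. The tools named in the submitters' processing notes are STAR 2.7.8a, HTSeq 0.11.3, Trim Galore 0.6.6, CASAVA and DESeq2, on GRCh38. Which annotation release was counted, and with what strand setting, is not given in the sources used here. Summary lines stayed out of library sizes and tests, and the report gives the shares that bear on a result. Identifiers were matched to a name table (60419 with a symbol) and to GENCODE release 29 (58488), which gave positions, GC content, length of the longest transcript and span.

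Counts were compared with edgeR 4.0.16 in R 4.3.3 (two-sided quasi-likelihood test, TMM, filterByExpr, adjusted p under 0.05 by Benjamini-Hochberg over 21993 genes, of 41858 with a read), with group as sole term. Offsets were natural splines with 5 degrees of freedom for each property, fitted per library. Alternatives were upper-quartile factors, size factors from DESeq2 1.42.0 and its Wald test, no low-count filter, the offsets, no mitochondrially encoded genes, replicate number as a block, glmTreat against a log2 fold change of 1, a threshold of 0.01 and each library left out. Offsets for GC content alone and leaving out ERRg replicates 1 and 2, or 3 and 4, were added after the data were seen. The code of the fits was run on simulated data with few genes changed, equally in both directions. For the offsets, a trend with GC content was added. Such data do not cover a difference in which most genes are called, so the run does not show that the scaling holds here.

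The 36 genes and all lists were chosen with earlier results of these data known. Library values are given for genes passing the test with a group mean of at least 1 CPM, up to 8 per direction, and for DDX58, IFIH1, MAVS, CGAS, STING1, IRF3, IRF7, IRF9, STAT2 and IRF1 regardless. In other pathway lists the 4 smallest p could be named, and IFNAR1 and IFNAR2 always. Some genes that the rule names are not reported here. Chi-square per gene between counts of ERRg replicates was 2.90 for 1 and 2 and 5.02 for 3 and 4, against 9.87 to 22.4 across these pairs and 12.5 to 41.2 in GFP, so no library was a duplicate, but the ERRg libraries may not be equally independent. The SE of a fold change includes the spread among libraries, while the floor in reads covers counting error only.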

Additional observations from a re-analysis of the deposited data

Results flagged for a closer look

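In groups of 4 libraries, 54 were examined for a library far from the others, and chance alone marks about 1 in 20 groups. GFP replicate 2 was the highest of its group for IFITM2 (75.4 CPM, next 55.6; gap 0.921 of the group's range), IFITM3 (59.1 CPM, next 45.0; 0.858) and IRF3 (62.1 CPM, next 48.6; 0.88), and it also had the smallest share of reads outside exons, 16.2%. GFP replicate 4 was the highest for IFI16 (2.18 CPM, next 1.73; 0.901) and IFIH1 (3.09 CPM, next 2.17; 0.839). GFP replicate 1 was the lowest for IFI44 (3.35 CPM, next 3.91; 0.869). ERRg replicate 3 was the lowest for IFI35 (0.369 CPM, next 0.894; 0.849). Outside the gene counts, the share of reads outside annotated exons averaged 46.7% in ERRg against 20.9% in GFP, which no comparison of genes uses.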

How the results depend on the processing

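Counts of genes lower among the 27 ranged from 14 to 17 over all alternatives other than the test against a log2 fold change of 1, which left 7 lower and 0 higher. Counts of genes higher were less stable. They were 7 with upper-quartile factors, 2 with the offsets for GC content, transcript length and gene span, 1 with offsets for GC content alone, 1 to 4 when each library was left out in turn, and 1 without ERRg replicates 1 and 2. The median log2 fold change was -0.56 with upper-quartile factors, -0.24 with the offsets, -0.31 with offsets for GC content alone, and -0.97 to -0.78 with each library left out. Over all genes, the offsets left 4427 higher and 5190 lower of fewer genes tested, the test against 1 left 1692 and 2302, and upper-quartile factors gave 11041 and 6045.

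Upper-quartile factors changed the sign of IFIT1 (0.092), IFIH1 (0.26) and IFNAR1 (0.29). The offsets changed that of ISG15 (0.0016), ISG20 (0.32), IFI6 (0.25), IFI44 (-0.029), IFI44L (-0.31), BST2 (0.35), EIF2AK2 (-0.25) and SOCS1 (0.20). Offsets for GC content alone changed IFIT5 (-0.18), ISG20 (0.32), IFI44 (-0.31), IFI44L (-0.37), BST2 (0.013), EIF2AK2 (-0.12) and SOCS1 (0.14). With each library left out, IFIT3 ranged from -0.071 to 0.22, IFIH1 from -0.22 to 0.040, IFNAR1 from -0.13 to 0.032 and IFI44L from -0.040 to 0.25, and none of them was called. Without ERRg replicates 1 and 2, IFIT3 was at -0.21 and IFI44 at -0.12, and without 3 and 4, IFIH1 was at 0.072 and IFNAR1 at 0.11. The cause of these changes was not tested.

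Same-numbered libraries did not deviate together (correlations of deviations 0.114, -0.258, -0.161 and -0.075), so the numbers were not taken as pairs. With the replicate number as a block, 4 of the genes were higher and 16 lower, 8191 and 7653 of all genes, with a median of -0.87 over the 27, and no call changed among the 27 or among the named genes of the other pathway lists and markers, CSF1R excepted (adjusted p = 0.0855). Depth limits MX1, BST2 and OASL, near 1 CPM or less, and the 9 genes not tested. It also limits OAS1 and IFI35, which were under 1 CPM in every ERRg library.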
